A study of Drosophila melanogaster with 2 samples.

Results

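Of the 4593 peaks that the conservative list of this ChIP-seq study placed on the main chromosome arms, 680 (14.8%) had their summit between genes and away from every promoter. A peak was counted here when its summit lay more than 500 bp from every annotated transcription start site (TSS) and outside every annotated transcript of any biotype, in the Ensembl annotation of the dm6 genome. The other peaks were promoter peaks with a summit within 500 bp of a TSS (1967), peaks in introns (1791) and peaks in exons (155). The annotation's 5889 transposable element entries counted as transcripts, and 687 peaks were intergenic without them. The protein that was profiled is CG7372, listed in the annotation as Phs, and it was recovered with an anti-GFP antibody from whole Drosophila melanogaster embryos aged 0 to 24 h that carried a CG7372-eGFP transgene. Chromatin was sonicated to 200 to 800 bp, and 2 biological replicates of this 1 group were deposited as peak lists. The tagged protein is the transgene's product, the embryos span all of embryonic development, and no untagged or input library was analysed here, so values stand for a mixture of cells and stages and were not set against a control.

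Sequence between fly genes holds many of the enhancers that switch developmental genes on in particular cells, along with insulators and silencers, and most of it is noncoding. Transcription factors find such sites through short words that their DNA-binding domains read, and a word can be read from either strand. ChIP-seq recovers DNA that is crosslinked to the tagged protein, and the summit of a peak is the position where the recovered fragments pile highest.

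Shown here are 101 bp around 8 of the summits, read from the RefSeq Release 6 (dm6) genome on the plus strand, so that the words counted in the results can be seen in place. The first 6 are strong intergenic peaks that hold such words, and the last 2 are strong peaks that hold none. Capitals mark bases covered by any of the 10 leading words, which are 8 letters long, were read on both strands, and overlap one another because all 10 hold the bases CGTAT on one strand. The words were GCGTATAC, CATACGCC, CGTATACG, CGCATACG, GCATACGC, TATACGCA, ATACGCCG, ATACGCCC, GGCGTATA and ACGTATAC.
CG14275 to witty, 2L:8334864-8334964: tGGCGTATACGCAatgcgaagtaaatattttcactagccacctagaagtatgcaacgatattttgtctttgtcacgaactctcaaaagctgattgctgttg
dpr17 to CG4702, 3R:12121314-12121414: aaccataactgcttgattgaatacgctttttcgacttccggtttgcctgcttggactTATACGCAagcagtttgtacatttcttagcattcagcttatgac
CG6106 to CrebB, X:18365149-18365249: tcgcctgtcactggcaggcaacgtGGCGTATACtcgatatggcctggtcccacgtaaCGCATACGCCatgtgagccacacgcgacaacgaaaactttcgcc
CG7606 to sll, 3R:17603789-17603889: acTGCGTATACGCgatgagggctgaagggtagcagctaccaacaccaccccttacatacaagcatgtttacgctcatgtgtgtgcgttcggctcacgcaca
CG1394 to CG15200, X:11171738-11171838: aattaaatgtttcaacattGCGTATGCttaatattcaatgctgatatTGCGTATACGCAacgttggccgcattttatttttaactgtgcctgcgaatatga
E23 to CG8838, 2L:3355905-3356005: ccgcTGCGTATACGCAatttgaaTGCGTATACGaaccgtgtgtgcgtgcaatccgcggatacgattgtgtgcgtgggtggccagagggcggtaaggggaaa
lncRNA:CR45641 to lncRNA:CR45643, 3R:16222443-16222543: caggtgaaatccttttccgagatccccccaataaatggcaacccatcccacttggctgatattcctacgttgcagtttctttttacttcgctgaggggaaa
lncRNA:CR44603 to lncRNA:CR45695, 2L:1638745-1638845: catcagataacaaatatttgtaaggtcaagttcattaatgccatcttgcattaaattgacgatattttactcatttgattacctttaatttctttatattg

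The leading words were centred on the intergenic summits and were common there. They were chosen on 3893 peaks of the other classes, none with a summit within 700 bp of an intergenic one, and were then counted in the 101 bp around each intergenic summit. At least 1 word occurred at 208 of 680 summits (30.6%, 95% Wilson interval 27.2 to 34.2%). In equally long windows 300 bp to either side, it occurred at 16 peaks (2.35%) on the side of lower coordinates and at 9 (1.32%) on the other side. A word stood at the summit but not in the lower flank of 202 peaks, and in the flank but not at the summit of 10 (two-sided exact McNemar test, adjusted p = 1.04e-46 over the 8 tests of shares in these data). Of 331216 windows of 101 bp that tile all sequence between genes and over 500 bp from a TSS, 4464 (1.35%) held a word. Among the 208 summits with a word, the nearest one lay a median of 14.5 bp from the summit. Neighbouring peaks share sequence and regions, so peaks are not independent replicates, and each p-value over peaks is smaller than independent sites would give.

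**Figure D1:**
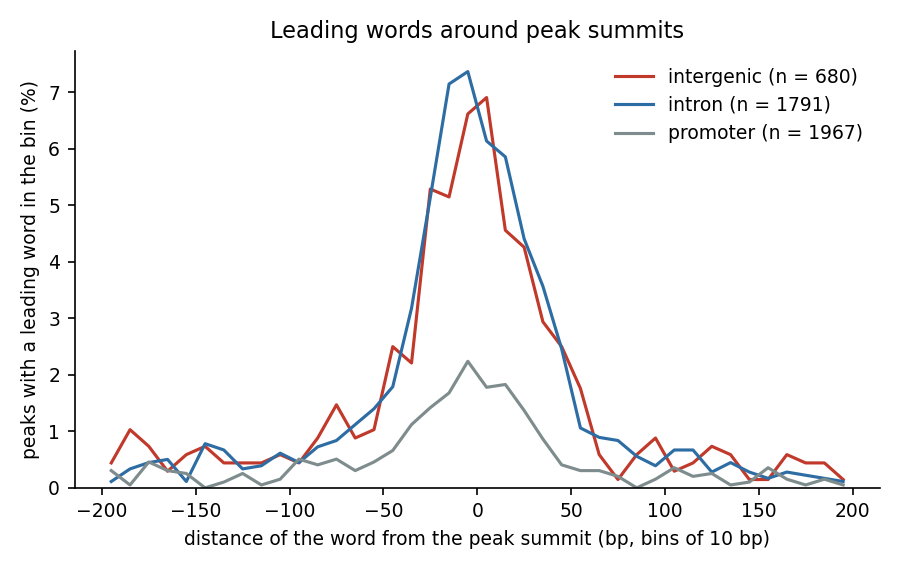
Share of peaks with a leading word in each 10 bp bin (vertical axis, percent) against the distance of the word from the summit (horizontal axis, bp), for 680 intergenic, 1791 intron and 1967 promoter peaks. The intergenic and intron lines rise together at the summit, and the promoter line stays lower.

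Intergenic summits held the words more often than promoter summits, and their difference from intron summits did not pass the test. A word occurred at 183 of 1967 promoter summits (9.3%), and the intergenic share was 21.3 percentage points higher (odds ratio 4.3, adjusted p = 2.06e-36 by a two-sided Fisher's exact test). It occurred at 562 of 1791 intron summits (31.4%), and the intergenic share was 0.791 points below that (-0.791 points, adjusted p = 0.734 by the same exact test). The words had been chosen partly on those promoter and intron peaks and not on the intergenic ones. More than 1 word, overlapping words included, fell at 183 intergenic summits (26.9%). CATACGCC was the commonest, at 89 intergenic summits (13.1%) and 4 lower flanks, followed by GCATACGC at 81 and CGCATACG at 79.

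The leading words join into longer ones, and sites for these between genes often lay in a peak of some strength. The palindrome GCGTATACGC, which is GCGTATAC continued on its other strand, stood at 24 intergenic summits (3.53%) and at 0 lower flanks. CGCATACGCC, where CGCATACG and CATACGCC overlap, stood at 51 (7.5%) and at 3 flanks. The sequence between genes and over 500 bp from a TSS held GCGTATACGC 147 times, and 31 of these (21.1%, Wilson interval 15.3 to 28.4%) lay inside one of the 680 peaks. It held CGCATACGCC 352 times, with 68 (19.3%, 15.5 to 23.8%) inside. The 680 peaks cover 0.617% of that sequence. In the ranked list of the series, which also holds the peaks that failed the authors' reproducibility threshold and covers 16.9% of the same sequence, 120 of 147 (81.6%) and 275 of 352 (78.1%) sites lay inside a peak. The single 8-letter words matched 8995 times, 945 of them (10.5%) in the 680 peaks and 4409 (49.0%) in a ranked peak. Overlapping matches were counted separately here, so a longer stretch such as a joined word counts more than once. These joined words were built after the leading words had been seen, so their shares are descriptions with no test.

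Words known for other fly factors were rare at these summits. GAGAGAG, the repeat read by the GAGA factor, stood at 1 intergenic summit and 13 lower flanks. CAGGTAG, read by the early activator Zelda, stood at 3 summits and 2 flanks, and TATCGATA, read by DREF, at 1 and 0. GGTCACACT, read by M1BP, stood at 1 and 1, and the core TGCATACT of the insulator protein Su(Hw) at 11 and 6. Simple repeats were searched alongside, with CACACACA at 16 and 29 and AAAAAAAA at 34 and 40. Each search covered both strands, and a word missing from 101 bp says nothing about the factor elsewhere. Of the 680 summits, 182 (26.8%) lay in soft-masked repeat sequence, against 26.6% of promoter and 25.7% of intron summits.

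The deposited signal of the intergenic peaks was lower than that of promoter peaks. That signal comes from the authors, its scale and the read depth behind it are not stated, and it serves only to order peaks within a list. Over the 680 peaks it ran from 2.07 to 847 with a median of 78.5, against a median of 100.4 over promoter peaks and 83.9 over intron peaks. The median of the whole list was 88.3, and 265 intergenic peaks (39.0%, 35.4 to 42.7%) lay above it. That share was 58.9% for promoter peaks (odds ratio 0.446, two-sided Fisher test, exact adjusted p = 8.08e-19) and 45.3% for intron peaks (odds ratio 0.772, adjusted p = 0.00777). The difference from introns did not pass in the list of either replicate alone (Fisher's exact test, adjusted p = 0.143 without replicate 1 and 0.574 without replicate 2). Of the 100 strongest peaks of the list 7 were intergenic, and of the 25 strongest 1 was.

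In the replicates' own lists the intergenic peaks were found less often than promoter peaks. The conservative list was made from the alignments of both replicates, so the overlaps are not independent of how the list was made. Of the 680, 330 (48.5%) overlapped a thresholded peak of replicate 1, 370 (54.4%) one of replicate 2, 252 (37.1%, 33.5 to 40.8%) both and 232 (34.1%) neither. Both replicates held 1087 of 1967 promoter peaks (55.3%, odds ratio 0.477, adjusted p = 5.69e-16 by Fisher's exact test) and 750 of 1791 intron peaks (41.9%, odds ratio 0.817, adjusted p = 0.0355). Among peaks above the list's median signal the difference from promoter peaks was -3.14 points and did not pass (Fisher's exact test, adjusted p = 0.326). The difference from intron peaks did not pass under 6 of 9 alternatives, among them 50% coverage of the peak (Fisher's exact test, adjusted p = 0.0656). Cut at the quartiles of the whole list's signal, the share of intergenic peaks in both replicates was 99.1% in the strongest group, then 70.1%, 11.4% and 5.14%. The promoter shares in the same groups were 99.4%, 67.1%, 13.5% and 10.6%.

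**Figure D2:**
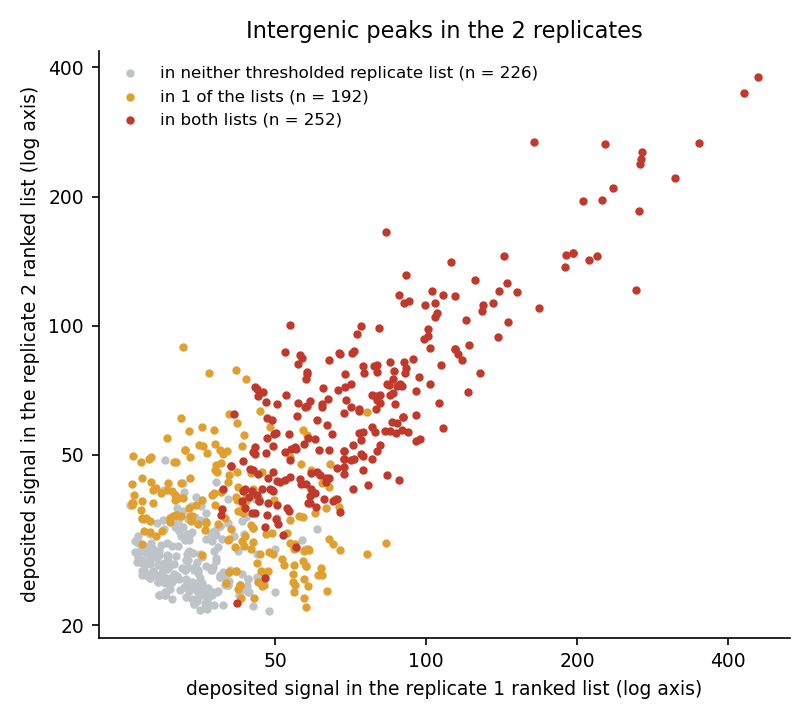
Deposited signal of the intergenic peaks in the ranked list of replicate 1 (horizontal log axis) and of replicate 2 (vertical log axis), on scales that are not stated. Each of the 670 points is a peak that overlaps a ranked peak of both; red points, in both thresholded lists, lie at the upper right and grey points, in neither, at the lower left.

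Nearly all of these peaks, like nearly all peaks of the list, had a counterpart in the replicates' ranked lists. Over all 4593 peaks there were 4568 in replicate 1 and 4563 in replicate 2, from ranked lists of 54168 and 57681 peaks. The conservative list was made from the same alignments, so this overlap is not independent support. Replicate 1 had a ranked peak at 676 of the 680, with signals of 25.7 to 459.7 and a median of 43.5, and replicate 2 at 674, with 21.6 to 379 and a median of 38.1. The 100 strongest intergenic peaks were all in both thresholded lists. The authors' reproducibility threshold kept 4593 of the 89561 ranked peaks of the series (5.13%). It kept 680 of 18203 intergenic ranked peaks (3.74%, 3.47 to 4.02%), 11.5% of promoter, 5.43% of intron and 0.728% of exon ones.

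The lowest signals belonged to summits beside another summit. A gap in the values separated 36 peaks with signals of 2.07 to 28.5 from the other 644, which began at 39.0, so a limit of 30 was set after seeing them. All 36 had another summit within 270 bp, at a median of 203 bp, and their 340 bp peaks therefore overlap. Of the other 644, 38 (5.9%) had a summit within 300 bp. An example lies 203 bp from the summit beside the Wnt receptor gene fz, at 3L:14272775, with a signal of 5.49 against 125 for its neighbour at 3L:14272572. Both overlap the same replicate peaks, with signals of 68.7 in replicate 1 and 51.0 in replicate 2. A leading word stood at 4 of the 36 (11.1%, 4.41 to 25.3%) and at 204 of the 644 (31.7%, 28.2 to 35.4%).

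By signal, the strongest summits held the words least often, as a description with no test. The share with a word was 19.8% (13.5 to 28.2%) among the 111 peaks of the strongest group by signal, 29.2% and 33.8% in the next groups and 34.1% (28.1 to 40.7%) among the 214 weakest. Of the 25 strongest intergenic peaks 4 held a word, and of the 100 strongest 17. Peaks with a word had a median signal of 75.7 against 81.5 for those without, and 28.8% of them (23.1 to 35.3%) were in both replicates against 40.7% (36.3 to 45.2%). The 101 bp around summits with a word held 48.2% ± 7.07 G and C (SD, n = 208 peaks) against 36.0% ± 10.4 (n = 472) without, and the words' own letters are counted in these shares. G and C made up 35.4% in the strongest group and 42.5% in the weakest. The part of base composition in the word shares was not tested.

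**Figure D3:**
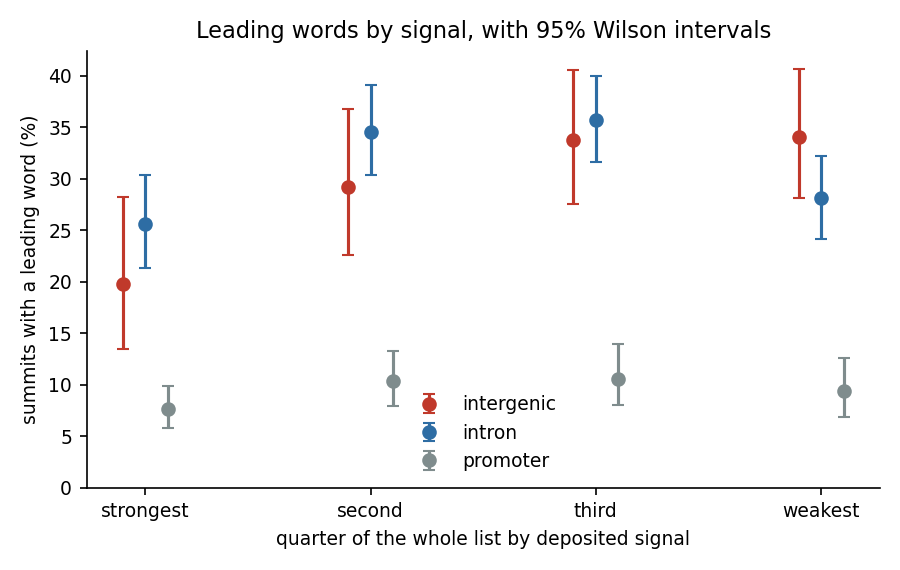
Share of summits with a leading word (vertical axis, percent, with 95% Wilson intervals) in 4 groups cut at the quartiles of the whole list's signal (horizontal axis, strongest to weakest). Intergenic shares run from 19.8% to 34.1%, intron shares are 25.6%, 34.6%, 35.7% and 28.1% from strongest to weakest, and promoter shares stay between 7.62% and 10.6%.

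The strongest intergenic peak lay between Su(z)2 and CG13323, genes that point towards each other, with the 3′ end of each facing it. Su(z)2 encodes a Polycomb group protein related to that of Psc, and such proteins keep developmental genes silent. The summit was at 2R:13035341, 27430 bp from Su(z)2 and nearer to CG13323, at 9354 bp. Each distance to a gene, here and below, runs to the gene's nearer edge, which can be its 5′ or its 3′ end. The signal of this peak was 847 in the series, 459.7 in replicate 1 and 379 in replicate 2. A further peak at 2R:12958207, between CG13321 and Psc, had signals of 237, 129 and 108 in the same order. Both were in the thresholded list of each replicate, and neither summit held a word. On the X, a summit at X:2124083 lay between ph-d and ph-p, the neighbouring polyhomeotic genes of the same group. It stood 797 bp from the 5′ end of ph-d and 2127 bp from the 3′ end of ph-p, with signals of 289, 168 and 110.0.

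Neighbours of the next strongest peaks were of many kinds, noncoding genes among them. The second strongest (3R:16222493, signals of 776, 429.9 and 348 in the series, replicate 1 and replicate 2) stood 902 bp from lncRNA:CR45643, with lncRNA:CR45641 on its other side. Its nearest protein-coding genes were mtSSB, which encodes the mitochondrial single-stranded DNA-binding protein, and tara. The third (2L:8334914, 617, 350.5 and 266) lay between CG14275 and witty and held 5 overlapping words. A peak 1120 bp from the 3′ end of upd2, a ligand of the JAK/STAT pathway, had signals of 514, 268 and 244 (X:18239534). On its other side lay lncRNA:CR45622. One 3374 bp from the 5′ end of foxo, the transcription factor of insulin signalling, had 421, 224 and 196 (3R:14053571). On its other side lay tRNA:Ser-GCT-2-2. One 1158 bp from the 5′ end of CrebB, a CREB family factor, had 348, 196 and 148 (X:18365199), with CG6106 on the other side. In each of these the replicate 1 value was the larger, and so was the replicate 1 median over the intergenic peaks (43.5 against 38.1). The lists have no stated common scale, so the 2 values were not read as a difference. Ranks in the replicates' lists ran from 30 to 240.

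Replicate 2 had the larger value at 3 of the 25 strongest, as a description with no test. The summit between the homeobox gene C15 and sp3 (3R:21520363) had signals of 429 in the series, 164 in replicate 1 and 268 in replicate 2. The summit between dpr17, which encodes an immunoglobulin-domain protein of the neuronal surface, and CG4702 (3R:12121364) had 474, 227 and 265, and the summit between RasGAP1 and CG10809 (3L:9856004) had 292, 143 and 145. Short gaps between converging genes also held strong peaks. The 1340 bp between blw, the ATP synthase alpha subunit gene, and CycB, the cyclin B gene, held a summit with 499.9, 267 and 238 (2R:22802937), and the 437 bp between Sol1 and Cyp9f2 held one with 399, 206 and 195 (3R:12403136). The remaining peaks of the 25 lay between CG17896 and CG17778 (455), soti and cv-c (439), COX7AL2 and CG31668 (355), lncRNA:CR44761 and Ppa (334), CG3149 and lncRNA:CR42794 (264), lncRNA:CR44537 and lncRNA:CR43883 (263), CG9743 and the ribosomal protein gene RpS7 (259.8), and tRNA:Phe-GAA-1-7 and tal-1A (259), with the signal of the series in brackets, or in the gaps described below. All 25 were in both replicates' thresholded lists.

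The peaks were spread over 518 gaps between neighbouring genes, and a few gaps held many. Of these gaps 413 held 1 peak, and the other 105 held 267 peaks. Gap length, from gene to gene, had a median of 10023 bp over the peaks. The 75047 bp between NijA, a ninjurin gene, and CG43245 on 3L held 12 summits, with signals of 41.7 to 357. Of these, 6 were in both replicates and 3 held a word. The strongest, at 3L:10752792, stood 55915 bp from NijA and 19133 bp from CG43245 and had 219 in replicate 1 and 145 in replicate 2. A pair of them, 42989 and 43197 bp from NijA, share 1 peak in each replicate's ranked list.

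Among the 5 gaps with most peaks, the one with most per kb was near chinmo, which encodes a BTB zinc finger factor of neuronal temporal identity. Between lncRNA:CR44603 and lncRNA:CR45695, in the 37097 bp that separate RFeSP from chinmo, 8 summits stood within 20910 bp. Their signals ran from 69.2 to 538, 7 of them were in both replicates and 3 held a word. The strongest, at 2L:1638795, had 314 in replicate 1 and 221 in replicate 2, the next, at 2L:1632840, had 269 and 254, and the third, at 2L:1643487, had 262 and 121. None of these strongest 3 held a word.

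The other gaps with 5 or more peaks were on 3L. The 32964 bp between tRNA:Ile-TAT-1-2 and CG13898 held 6, the strongest with 339 in the series, 190.5 in replicate 1 and 146 in replicate 2. The 19063 bp between lncRNA:CR44363 and CG7560 held 5, none with a word and 4 in both replicates. The 70507 bp between vvl, a POU-domain factor gene, and lncRNA:CR45115 held 5, with signals of 68.5 to 181.

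**Figure D4:**
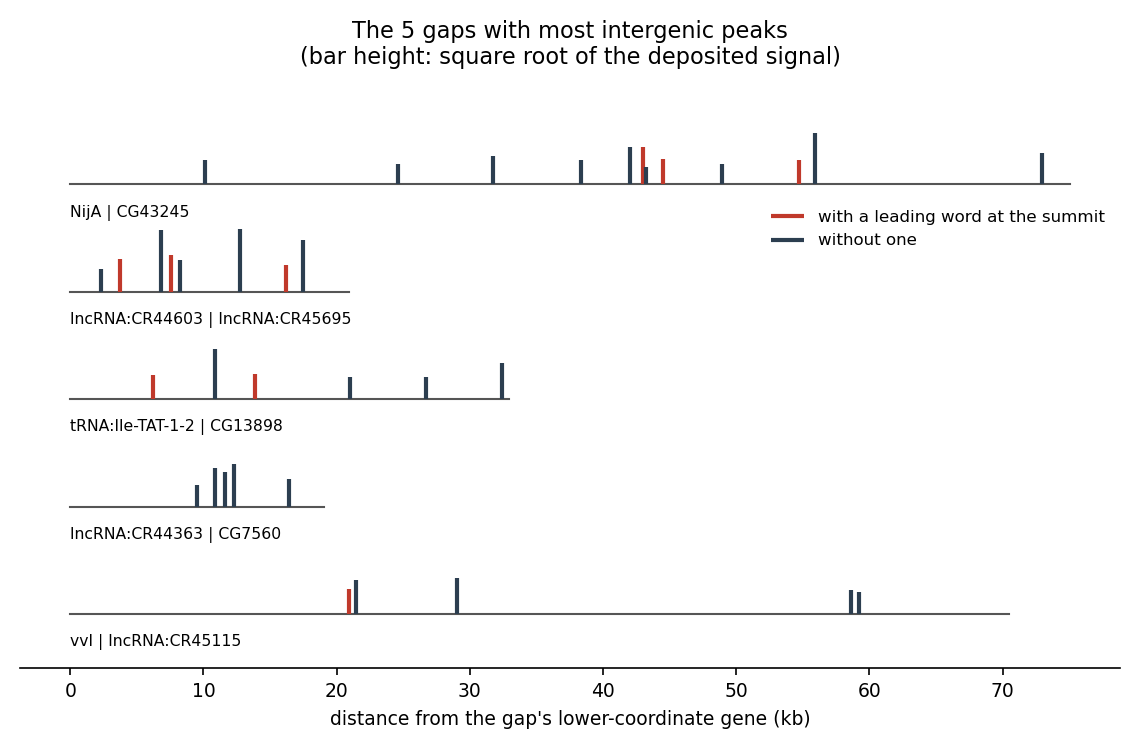
Positions of intergenic summits in the 5 gaps that held most of them, as distance in kb from the gene at lower coordinates (horizontal axis); bar height is the square root of the deposited signal and red bars hold a leading word. The gap between NijA and CG43245 holds 12 summits over 75047 bp, and the gap near chinmo holds 8 over 20910 bp.

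Peaks were denser close to a TSS than far from one. The nearest TSS lay a median of 2809 bp from the summit, with a range of 502 to 36672 bp. Sequence that could hold such a peak came to 33.5 Mb, 24.4% of the 137 Mb of the main arms, and held 20.3 peaks per Mb. From 501 to 1000 bp from a TSS there were 111 peaks, or 32.9 per Mb (95% Poisson interval 27.1 to 39.6, which covers counting error only). Density was 30.9 per Mb from 1001 to 2000 bp, 24.9 from 2001 to 5000 bp and 17.5 from 5001 to 10000 bp. Beyond 10000 bp it was 6.57 per Mb (4.98 to 8.52), and 7.68 with the Y chromosome left out. Words were less common close to a TSS, at 18.0% of summits (12 to 26.2%) in the nearest band. They stood at 39.8% (31.6 to 48.7%) from 5001 to 10000 bp and at 35.1% (24 to 48.1%) beyond. These bands are descriptions with no test.

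**Figure D5:**
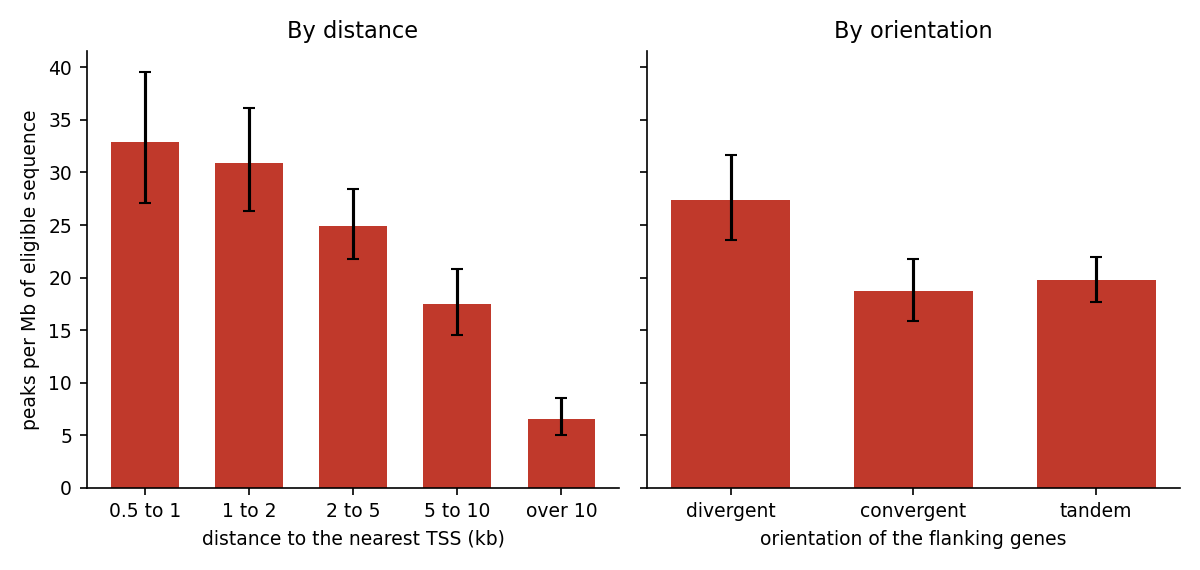
Intergenic peaks per Mb of sequence that could hold one (vertical axis from 0, with 95% Poisson intervals), by distance to the nearest TSS in kb (left) and by orientation of the flanking genes (right). Density falls from 32.9 to 6.57 per Mb with distance, and gaps between divergent genes hold 27.4 per Mb.

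Signals varied widely on either side of the 500 bp limit. Just inside it were summits 502 to 512 bp from the TSS of CG17896 (signal 455), l(3)neo38 (79.3), CG34212 (70.6), SsRbeta (97.0) and CG13643 (154). Just outside were summits 492 to 483 bp from lncRNA:CR44904 (259.9), Gyc88E (91.1), lncRNA:CR45284 (11.2), CG6602 (154) and lncRNA:CR44828 (63.6).

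Gaps between genes that point away from each other held more peaks than their length gives. Genes on both sides of a peak were taken from 18277 annotated genes, without transposable elements. Divergent gaps held 182 peaks, 27.4 per Mb of sequence that could hold one, which is 1.35 times their share of length (two-sided exact binomial test, adjusted p = 3.43e-05 over 3 orientations). Convergent gaps held 161 (18.7 per Mb, ratio 0.920, adjusted p = 0.354) and tandem gaps 337 (19.8 per Mb, ratio 0.972, adjusted p = 0.466) by the same exact test. The divergent ratio passed under all 11 alternatives, at 1.29 to 1.48, among them 1 peak for each gap. With a TSS limit of 200 or 1000 bp the divergent ratio was 1.48 or 1.29, and the convergent ratio 0.72 or 1.01. Expected counts used length only, while density fell from 32.9 to 6.57 per Mb with distance from a TSS. Divergent gaps have a start site at both ends, and the part of TSS distance in these ratios was not tested. The nearest gene end was a 5′ end for 340 peaks and a 3′ end for 340. Summits within 500 bp of a TSS are left out by the rule, but those near a 3′ end are not. This split therefore shows neither a preference nor the lack of one. Of the 18277 genes 980 (5.36%) were a direct neighbour of an intergenic peak. Both neighbours were protein-coding for 355 peaks, 1 of them for 251 and neither for 74.

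By chromosome arm, 3L held 214 peaks, 27.5 per Mb of sequence that could hold one (ratio 1.36, exact binomial test, adjusted p = 3.00e-06 over 7 arms). The ratio was 1.18 and did not pass with 1 peak for each gap (exact binomial test, adjusted p = 0.0875); 4 of the 5 fullest gaps, with 28 peaks, are on 3L. The Y held 0 peaks over 2.14 Mb, where the exact upper limit is 1.73 per Mb (exact binomial test, adjusted p = 3.89e-19). How well reads can be placed on the Y was not tested, nor was the number of Y and X copies in the embryos. The 0 is therefore a count of listed peaks. By the same exact test 2L held 141 (ratio 1.18, adjusted p = 0.0567), 2R 102 (ratio 0.827, adjusted p = 0.0567), 3R 139 (ratio 0.973, adjusted p = 0.742), X 82 (ratio 0.891, adjusted p = 0.401) and chromosome 4 held 2 (ratio 1.59, adjusted p = 0.417). The 2L ratio passed under 6 alternatives, at 1.19 to 1.40, and the 2R ratio under 2, at 0.770 and 0.774.

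In the full list, genes beside these peaks had a promoter peak somewhat less often than other genes, and this did not hold under every setting. Of 13968 protein-coding genes, 2330 (16.7%) had a summit within 500 bp of a TSS. Among the 726 that directly flanked an intergenic peak 98 did (13.5%), against 2232 of 13242 others (16.9%, odds ratio 0.770, Fisher's exact test, adjusted p = 0.0248; genes are not independent). The difference did not pass in the list of either replicate alone (-1.18 and -1.15 points, Fisher's exact test, adjusted p = 0.490 and 0.574). It kept direction and side of the threshold under 5 of 9 alternatives, and was 0.566 points among peaks above the median signal. The others were all remaining protein-coding genes, whether or not sequence beside them could hold such a peak. Genes nearest to intergenic peaks had longer gaps (median 16.6 kb against 2.59 kb over all), and the part of this was not tested. Peaks themselves were far from promoter peaks, the nearest being a median of 27901 bp away and within 1000 bp for 30 of the 680. The gene of the tagged protein, Phs (3L:15619901-15624130), had its nearest intergenic peak 51129 bp away. Peaks of other classes lay closer, among them a promoter peak at 3L:15619794 (signal 164) and an intron peak at 3L:15625314 (489).

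Embryonic patterning genes were among the neighbours. Of all 13968 protein-coding genes, 903 (6.46%) were the nearest protein-coding gene on a side of an intergenic peak. Such a neighbour can be far away, as with RpS26 at 46308 bp and side-VIII at 61500 bp, and noncoding genes can lie between. The distance from such a gene to its protein-coding neighbours, summed over both sides, had a median of 16.6 kb against 2.59 kb over all protein-coding genes, and the part of this gap length in the counts that follow was not tested. Of 9 pair-rule genes, which divide the embryo into segments, 4 (44.4%, Wilson interval 18.9 to 73.3%) were neighbours, namely slp1, slp2, hry and odd. The summit between slp1 and slp2 (2L:3832495) had signals of 229 in the series, 108 in replicate 1 and 118 in replicate 2. It lay 5396 bp from slp1 and 4345 bp from slp2. The strongest summit on the hry side, 23273 bp away and with lncRNA:CR44526 between, had 96.8, 65.1 and 39.1. The summit on the odd side, 10009 bp away, had 55.4, 32.3 and 24.2. The slp and hry summits were in both thresholded lists, and the odd summit was not. Gap length over the pair-rule genes had a median of 33.2 kb.

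Of 14 gap and maternal genes, 3 were neighbours, all of them head gap genes. The strongest summit beside ems had signals of 115 in the series, 46.1 in replicate 1 and 71.0 in replicate 2. The one beside oc had 89.2, 44.6 and 46.3, and the one beside btd 83.2, 43.1 and 41.1, with a word. Distances from these summits were 11206 bp to ems, 2813 bp to oc and 1308 bp to btd. Of 8 Hox genes, which give segments their identity and had a median gap length of 26.1 kb, only abd-A was a neighbour (12.5%, 2.24 to 47.1%). It lay 8311 bp from a summit with 131, 56.7 and 84.2 (3R:16798903). Each of these summits was in both replicates.

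Segment polarity, mesoderm and T-box genes were also represented. Of 17 segment polarity genes 6 were neighbours, and beside slp1 the strongest were those of the Hedgehog receptor ptc (163), the Wnt receptor fz (125) and gsb (108). Of 16 mesoderm genes 4 were, the FoxF factor bin (155), the ladybird genes lbe and lbl (100.2, a shared summit with a word) and bap (83.8). Of 19 Iroquois, T-box and NK genes 5 were, with a shared summit of 199.5 beside the T-box genes Doc1 and Doc2, each of which had 5 peaks beside it, most of them shared, then mid (121) and ara (56.5). Of 21 neural fate genes only the Sox genes D (118) and SoxN (103) were. Of 11 Enhancer of split complex genes 4 were, at 2 summits, between them E(spl)malpha-BFM and E(spl)mbeta-HLH (165) and E(spl)m2-BFM and E(spl)m3-HLH (12.8). The summit with 12.8 is among the 36 lowest peaks described above, all of which had another summit within 270 bp. Numbers in brackets after gene names are signals in the series. Median gap lengths were 12.1 kb for segment polarity, 8.84 kb for mesoderm and 25.6 kb for Iroquois, T-box and NK genes. They were 19.6 kb for neural fate and 5.21 kb for Enhancer of split complex genes. Over all protein-coding genes the median was 2.59 kb, and the part of gap length in the shares was not tested.

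Polycomb and trithorax group genes were neighbours in 4 of 19 cases (21.1%, Wilson interval 8.51 to 43.3%), against 6.46% of all protein-coding genes. These were Su(z)2, ph-d, ph-p and Psc described above, and ph-d and ph-p share a summit. Gap length over the 19 had a median of 2.23 kb, against 2.59 kb over all protein-coding genes. Of 12 ecdysone response genes 2 were neighbours (16.7%, 4.7 to 44.8%, median gap length 5.88 kb), Eip93F (signal 69.8) and Eip75B (53.3). Of 10 Notch pathway genes and of 14 insulator protein genes 0 were, with upper Wilson limits of 27.8% and 21.5%. Of these, 5 and 7 had a promoter peak, and their gaps had medians of 2.81 and 1.63 kb. Of 60 genes for immunoglobulin superfamily proteins of the neuronal surface 13 were (21.7%, 13.1 to 33.6%). They were led by dpr17 (474), dpr20 (160.3), side-VIII (100.4) and DIP-beta (97.7). Gap length over the 60 had a median of 15 kb, and the part of gap length in these shares was not tested.

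Larger gene families are set beside the 6.46% of all genes. Of 179 odorant, gustatory and ionotropic receptor genes 13 (7.26%) were neighbours, led by Or67d (132), Gr89a (131), Or85b (119) and Or45b (109). Of 122 cuticle protein genes 13 (10.7%) were, led by Cpr76Ba (244), Cpr66Cb (154), Cpr47Ef (143) and Cpr11A (126), and the last 3 of these summits held a word. Of 92 cytosolic ribosomal protein genes 5 (5.43%) were, led by RpS7 (259.8), RpL40 (82.7), RpS26 (76.4) and RpL17 (69.2), while 49 had a promoter peak. Of 73 mitochondrial ribosomal protein genes only mRpL52 (72.0) was, while 28 had a promoter peak.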

How the data were processed

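The authors deposited 8 peak lists on dm6, thresholded and ranked by reproducibility between inputs, for each replicate and for the series. Per the file headers the series lists draw on both replicates' alignments and on inputs left unnamed. For aligner, peak caller and versions: not given in the sources used here. Each deposited score of thresholded peaks is at least 830, and the deposited signal has no stated scale. A further 16 columns of per-input values were not used. Summits were classified with Ensembl release 115 and sequence was read from RefSeq Release 6, with Python 3.11.15, pandas 2.3.3, numpy 2.4.6 and scipy 1.17.1. The 10 leading words of 8 letters were those most enriched in 101 bp at summits of the other classes against windows 300 bp away. Benjamini-Hochberg adjustment ran over 8 tests of shares, 3 orientations and 7 arms. The scripts were tested on simulated data. Depth per sample is unknown, and intervals cover counting error only. The labels call the replicates biological; nothing was tested between groups.

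Of the 21 gene lists, 1 name each of the gap and Notch lists found no gene. Members, lists and tests were chosen with earlier results of these data known, among them the CGTAT words, so the words are not independent evidence. Named genes are those beside the 25 strongest peaks, the 5 fullest gaps and the 500 bp limit, up to 4 per list by signal, all Hox, pair-rule, gap and maternal neighbours, and CG7372. Alternatives changed the list, replicate, TSS distance, annotation, merging, overlap rule and windows. Of 18 settings, 6 were chosen after seeing the data.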

Additional observations from a re-analysis of the deposited data

Results flagged for a closer look

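The ranked list of the series holds peaks whose deposited score reaches 830, the lowest passing score, and that the conservative thresholded list nevertheless leaves out. There were 82 on the main arms, 9 of them intergenic by the same rule. They were picked out because they carry a signal outside the list that was described. Their signals ran from 48.4 to 429.9. The strongest (3R:16224512) lay between lncRNA:CR45643 and tara, in the gap next to that of the second strongest intergenic peak. Of the 9, 4 lay beside the rhodopsin gene Rh5 on 2L, the strongest of them with a signal of 257. The reason they were left out is not given in the sources used here and was not tested.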

How the results depend on the processing

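Over 18 settings, 154 of 190 values with a test kept their direction and side of the threshold, and the number of intergenic peaks ran from 265 to 924 against 680. The words at summits against flanks (24.7 to 31.2 points), words against promoter peaks (14.7 to 24.2 points), signal against promoter peaks (-21.5 to -16.3 points), the divergent ratio (1.29 to 1.48) and the Y (0) kept both under every setting run. With 1 replicate's list alone there were 339 to 421 intergenic peaks (12.1 to 13.7%), signal against introns differed by -4.5 to -2.2 points, flanking genes with a promoter peak by -1.18 to -1.15 points, the tandem ratio was 0.923 to 1 and the 2L ratio 1.19 to 1.27. Peaks above the median signal left 265 (11.5%), with both-replicate differences of -3.14 points from promoter and 0.637 from intron peaks, a flanking-gene difference of 0.566 and a 2L ratio of 1.40; here a smaller range of signals is compared. A TSS distance of 200 bp gave 20.1% intergenic, both-replicate and signal differences from introns of -1.8 and -3.49, a flanking-gene difference of -1.2, and ratios of 0.72 (convergent, exact binomial test, adjusted p = 9.31e-07), 1.00 (tandem), 1.06 (3R) and 0.756 (chromosome 4). A distance of 1000 bp gave 12.4%, -4.81 points for both replicates against introns, and ratios of 1.01 (convergent) and 1.24 (2L). Protein-coding genes only gave 17.9% and ratios of 1.19 (2L), 1.02 (3R) and 0.346 (chromosome 4). The second series list gave -3.62 points for both replicates against introns and 1.33 for words against introns; 50% coverage and summits within 100 bp gave -4.22 and -4.11 for the former. Merging overlapping peaks gave a 2L ratio of 1.21. Chosen after seeing the data, leaving out transposable element entries gave ratios of 1.21 (2L), 0.77 (2R), 1.03 (3R) and 0.458 (chromosome 4), leaving out the Y gave 0.774 (2R), 1 peak for each gap gave 1.18 (3L) and 1.04 (3R), and peaks at or below the median signal gave 2.04 points for words against introns. For these changes the cause was not tested. No paired analysis was possible because there is only 1 group. Depth is unknown, and chromosome 4 with 2 peaks allows no statement.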

Other observations

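Noncoding genes were among the direct neighbours, and their lists are set beside the 5.36% of all 18277 genes that directly flanked an intergenic peak. Of 1360 neighbour places (2 for each peak), 367 (27.0%) were held by noncoding RNA genes and 28 (2.06%) by tRNA genes. Of 2448 long noncoding and antisense RNA genes 229 (9.35%) were, led by the pairs around the peaks with signals of 776 and 538. Of 290 tRNA genes 16 (5.52%) were, a share near that of all genes, led by tRNA:Ser-GCT-2-2 (421), tRNA:Ile-TAT-1-2 (339), tRNA:Phe-GAA-1-7 (259) and tRNA:Ile-TAT-1-1 (169). Of 260 microRNA genes 4 (1.54%) were, namely mir-4981, mir-280, mir-219 and mir-972, with signals of 229, 104, 87.0 and 82.9. Of 269 snoRNA genes 0 were.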
